A study of Mus musculus with 2 samples.

Results

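Beta cells take up glucose, phosphorylate it and burn it, and the rise in ATP closes the KATP channel of the plasma membrane, which depolarizes the cell, opens calcium channels and releases insulin granules. Some genes of this route act at its brakes and amplifiers: G6pc2 undoes glucose phosphorylation, the GLP-1 receptor raises cAMP, and Slc30a8 loads granules with the zinc that insulin crystallizes with. Txnip, an inhibitor of thioredoxin, is known as a gene that glucose switches on in islets. The genes described here are 9 grouped under glucose sensing and secretion coupling of beta cells, namely G6pc2, Abcc8, Kcnj11, Slc30a8, Glp1r, Ucn3, Trpm5, Prlr and Txnip. Not all of them act in that coupling itself. They were chosen by name, and each probe set that carried exactly 1 gene symbol and that symbol was taken, which gave 13 of 45037 probe sets, for 8 of 18193 genes. No probe set was named Prlr in the annotation used here, and the prolactin receptor is therefore given no value. Of the 8 genes, 4 had 1 probe set, 3 had 2 and 1 had 3.

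Islets of WT C57BL/6 donors, 50 per recipient, lay under the left kidney capsule of male recipients for 6 hours, after which total RNA of the graft was hybridized to 1 array per condition. One sample came from a hyperglycemic C57BL/6J recipient heterozygous for Akita, a missense mutation of Ins2 that makes mice diabetic. The other came from a normoglycemic WT C57BL/6 recipient. The donor islets were WT in both samples, neither recipient is described as having received insulin, and the labels do not say how many mice stand behind a sample. Immunodeficient Akita mice lacking Rag1 served in the study only for tests of insulin secretion. An age at transplantation is stated for the untreated Akita recipients that were followed up, and not separately for the recipients of these arrays. Blood glucose and genotype of the recipient cannot be told apart in this design. With 1 array per condition there was no replicate check, and no difference could be tested.

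Values are MAS5 signals on a linear scale, and ratios are of the hyperglycemic over the normoglycemic recipient. The array median, 91.5 for the hyperglycemic and 82.9 for the normoglycemic recipient, served as the floor, and signals under it were treated as low. A gene counted as measured if its brightest probe set reached the floor in either sample. Scatter was judged from pairs of probe sets of the same gene, within the arrays. At this scatter 1 SD of a ratio was 1.17-fold at mean signals of 1024 to 4096, 1.26-fold at 256 to 1024, 1.53-fold at 64 to 256 and 2.90-fold at 16 to 64. This is a technical spread and not an error between grafts.

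Both samples carried the markers of islet and of kidney, and cell type markers differed between them. Ins2 had a signal of 88302 in the hyperglycemic and 68738 in the normoglycemic recipient, and Iapp, islet amyloid polypeptide, 74018 and 47116. The 12 measured islet endocrine genes, fixed as a reference list, had a median ratio of 1.59, with 9 above 1 and 3 below. Of the 3 measured alpha cell markers (summed signal 45346 against 27490), Gcg (glucagon) had a ratio of 2.41 and Ttr 1.16. The third, Irx2, had signals of 76.1 and 92.7, the first below the floor. Of the 2 delta cell markers (summed signal 4110 against 1564), Sst (somatostatin) had a ratio of 2.70 and Hhex 1.95. All 5 macrophage markers were over 2-fold higher in the hyperglycemic recipient (summed signal 79774 against 9720). The 6 proximal tubule markers were all within 2-fold (191746 against 157948), whereas the 4 measured markers of other nephron segments (20430 against 31564) and the 4 of endothelium (862 against 1512) all had ratios below 1, of which 1 and 2 were over 2-fold lower, or 1 and 1 with signals raised to the floor. No marker was listed at 0. The part of these differences in the values that follow was not tested, and in such mixed tissue fewer cells of a type and less RNA per cell cannot be told apart.

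Over all genes of the group, 7 of the 8 were measured, each with both signals at or above the floor, and their ratios differed from gene to gene. Slc30a8 was over 2-fold higher in the hyperglycemic recipient, and 0 were over 2-fold lower. Among 12538 measured genes the shares past the same limit were 7.56% upward and 5.54% downward, and 1 gene in 7 is too few to set against them. Of the 13 probe sets, 8 were measured, of which 1 was over 2-fold higher and 0 lower, against 9.84% and 6.73% of all measured probe sets. The median log2 ratio of the 7 genes was 0.21, against -0.06 for all measured genes, and 5 of the 7 ratios were above 1. Measured against the scatter of probe sets, 3 genes were at least 1 SD from equal signals (Slc30a8, G6pc2 and Txnip), where 48.8% of all measured genes were, and 2 (Slc30a8 and G6pc2) at least 2 SD, where 17.8% were.

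**Figure D1:**
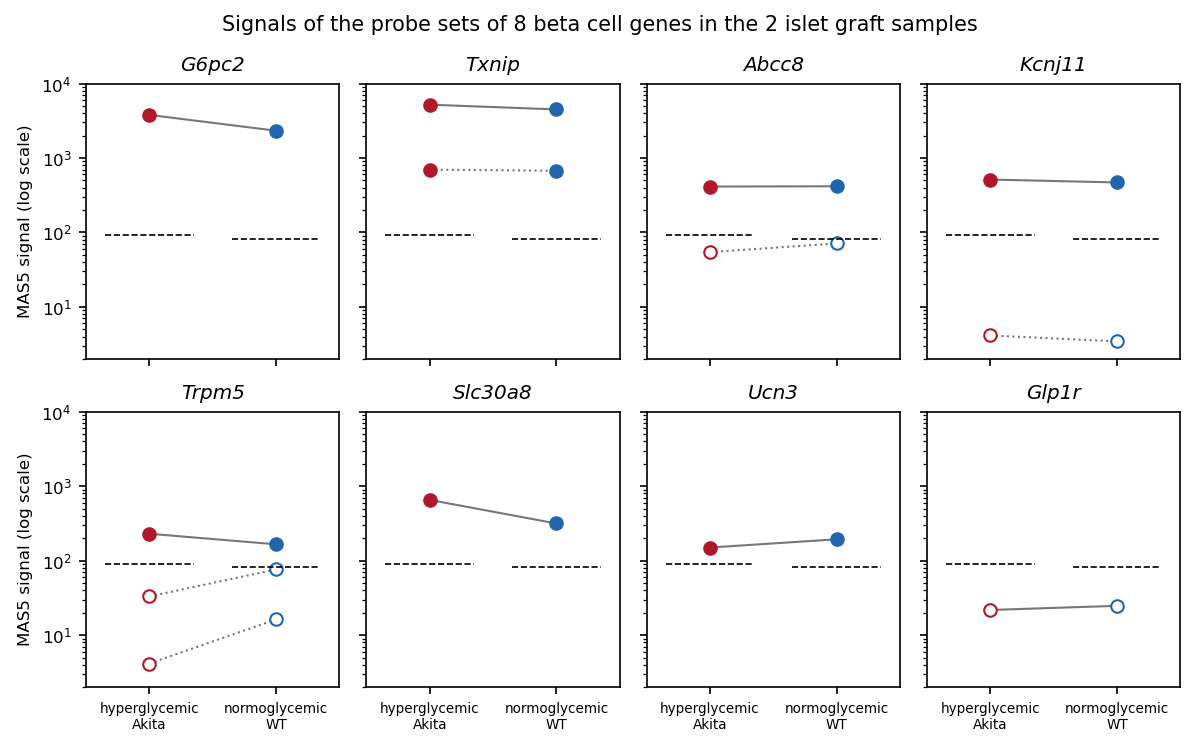
MAS5 signal (y axis, log scale) of each probe set of 8 genes in the graft sample of the hyperglycemic Akita recipient (red, left) and of the normoglycemic WT recipient (blue, right), with 1 array per condition. Solid lines join the brightest probe set of a gene and dotted lines its other probe sets, dashed lines mark the array medians of 91.5 and 82.9, and open points lie below them. Slc30a8 (655 against 316) and G6pc2 (3786 against 2323) slope most among the filled points, and Glp1r lies below the medians in both samples.

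The glucose end of the route was represented by G6pc2 and Txnip. G6pc2 encodes the catalytic subunit of an islet glucose-6-phosphatase, which reverses the step of glucokinase and so sets the glucose level at which secretion begins. Its 1 probe set had a signal of 3786 in the hyperglycemic and 2323 in the normoglycemic recipient. The ratio was 1.63, a log2 ratio of 0.70, or 3.18 SD of probe set scatter at this signal. As deposited, the signal was thus higher in the hyperglycemic recipient by more than the scatter. The log2 ratio was 0.34 when centred on Ins2 and 0.04, well within 1 SD (0.22), when centred on the islet endocrine genes. It was 0.56 with median centring and 0.73 when centred on the measured beta cell markers, so that its size depended on the reference. Of the 4 measured beta cell markers, Iapp had a ratio of 1.57, Ins2 1.28, Pdx1 0.75 and Nkx6-1 0.73.

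Txnip binds and inhibits thioredoxin and has been tied to beta cell death under high glucose. On its brighter probe set the signal was 5194 in the hyperglycemic and 4489 in the normoglycemic recipient, a ratio of 1.16, which is 1.05 SD of the scatter. On the other probe set the signals were 696 and 674, a ratio of 1.03 and 0.14 SD. Both probe sets thus put the signals near equality, and the ratio of the brighter one fell below 1 when the arrays were centred on Ins2 or on the islet endocrine genes. Txnip is expressed in many tissues, kidney included, and the share of its signal that came from islets was not measured.

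The 250 bases before a start of each of these 2 genes are shown because Txnip is the glucose-induced gene of the group and G6pc2 an islet-specific gene whose deposited ratio lay beyond the scatter. RefSeq has 2 starts for G6pc2, and the region before the upstream one is printed. They are given 5′ to 3′ from RefSeq in the build GRCm38.p6, Txnip at chr3:96557707-96557956 and G6pc2 at chr2:69210823-69211072, both on the plus strand. Capitals mark the half-sites CACGAG in Txnip, which form its known carbohydrate response element bound by ChREBP and Mlx, and the E-box CANNTG in G6pc2, the kind of site bound by NeuroD1 and related factors.
Txnip: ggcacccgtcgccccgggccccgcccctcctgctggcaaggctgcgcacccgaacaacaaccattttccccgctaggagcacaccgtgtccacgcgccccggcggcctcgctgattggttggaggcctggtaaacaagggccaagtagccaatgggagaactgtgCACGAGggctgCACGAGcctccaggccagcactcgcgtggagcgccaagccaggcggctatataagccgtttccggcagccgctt
G6pc2: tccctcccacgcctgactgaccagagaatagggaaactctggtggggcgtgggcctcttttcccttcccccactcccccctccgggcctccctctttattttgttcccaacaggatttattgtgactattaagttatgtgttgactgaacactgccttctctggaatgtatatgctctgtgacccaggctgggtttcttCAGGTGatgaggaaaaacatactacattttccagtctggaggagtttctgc
The 2 copies of CACGAG in Txnip began 85 and 74 bases before the start, with 5 bases between them. Searched on both strands of 32851 promoters of this length, that pair was in 1, a single CACGAG in 5.37% and CANNTG in 66.2%, where each copy of the pair also counts as a single match. The letters were taken from the element known in Txnip, so that its being the only match is no finding. In G6pc2 the 1 E-box of the printed region began 51 bases before the start. The region before its other start, chr2:69219699-69219948, held 4, which began 181, 78, 34 and 20 bases before it, and CACGAG was found 0 times in either. Such matches are descriptions of letters and do not show that a factor was bound in these grafts.

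Abcc8 and Kcnj11, the channel genes, gave near-equal signals. They encode the sulfonylurea receptor and the potassium pore of the KATP channel, whose closure by ATP starts the electrical response, and the genes are direct neighbours among the protein-coding genes of chromosome 7. Abcc8 had a signal of 413 in the hyperglycemic and 417 in the normoglycemic recipient on its brighter probe set, a ratio of 0.99 (log2 ratio -0.01). Kcnj11 had signals of 513 and 469, a ratio of 1.09 (log2 ratio 0.13, or 0.39 SD). The 2 subunits thus differed between the samples by less than 1 SD of the scatter, which for these signals was 1.26-fold. Each had another probe set below the floor in both samples, at 54.4 and 71.1 for Abcc8 and 4.14 and 3.44 for Kcnj11, for which no fold is given. When centred on the islet endocrine genes, the log2 ratios were -0.68 for Abcc8 and -0.54 for Kcnj11, whereas centring on the 4 measured beta cell markers Ins2, Iapp, Pdx1 and Nkx6-1 left 0.01 and 0.16.

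Trpm5 encodes a calcium-activated cation channel that adds to depolarization in beta cells and is also known from taste cells. Its brightest probe set had a signal of 229.9 in the hyperglycemic and 166 in the normoglycemic recipient, a ratio of 1.39, within 1 SD (0.77) of equal signals. Its other probe sets were below the floor in both samples and ran the opposite way, with signals of 33.1 and 76.4 on the one and 4.16 and 16.3 on the other. At such low signals 1 SD was 2.90-fold and 3.99-fold, and both differences were within 1 SD. No direction can be given for Trpm5, since its ratio also fell below 1 when centred on the islet endocrine genes.

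Among the granule and hormone genes, Slc30a8 had a ratio above 1, and Ucn3 had one below 1 that was within the scatter. Slc30a8 encodes the zinc transporter ZnT8 of the insulin granule membrane, which alpha cells also express. Its 1 probe set had a signal of 655 in the hyperglycemic and 316 in the normoglycemic recipient. The ratio was 2.07, a log2 ratio of 1.05, or 3.14 SD, and it was the highest of the 7 measured genes. It lay just past the limit of 2-fold. The log2 ratio was 0.91 with median centring and 0.90 with the array median added to both signals. It was 0.69 when centred on Ins2 and 0.39 when centred on the islet endocrine genes. Under these settings the ratio stayed above 1 but was not over 2. It stayed over 2 with quantile normalization (log2 ratio 1.07) and when centred on the measured beta cell markers (1.08). Granule genes of the islet endocrine list, named after their values were seen, lay on both sides. Ratios were 1.96 for Cpe (7345 against 3752), 1.93 for Pcsk1 (376 against 194), 1.60 for Scg2 (8932 against 5573) and 1.23 for Scg3 (3014 against 2448). They were 0.91 for Pcsk1n (369 against 407), 0.87 for Chgb (1995 against 2303) and 0.82 for Chga (4218 against 5117).

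Ucn3 encodes urocortin 3, a peptide released with insulin that in mice marks mature beta cells and acts on delta cells. It had a signal of 150.3 in the hyperglycemic and 194 in the normoglycemic recipient, a ratio of 0.78. This log2 ratio of -0.37 was 0.60 SD in size, within the scatter at low signals. It was the lowest ratio of the 7 measured genes, stayed below 1 under every scaling tried, and was -1.03 on the log2 scale when centred on the islet endocrine genes. Pdx1 and Nkx6-1, transcription factors of beta cells, had ratios of 0.75 (136 against 181) and 0.73 (481 against 658). Their log2 ratios were -0.67 and -1.35 SD, so that Pdx1 was also within the scatter. The ratios of Ins2 and Iapp, given above, were over 1. The other urocortins and the receptors of the family were below the floor in both samples, with Crhr2, the receptor of urocortin 3 and named after its values were seen, at 68.4 and 74.3.

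Of the receptors, only Glp1r could be looked at, and it gave no usable signal. Glp1r encodes the receptor of the incretin GLP-1, which amplifies secretion when glucose is high. Its 1 probe set had a signal of 21.8 in the hyperglycemic and 24.8 in the normoglycemic recipient, below the floor in both, and no fold is given. At this signal 1 SD of a ratio was 2.90-fold, so that a difference of that size in Glp1r could not have been seen.

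**Figure D2:**
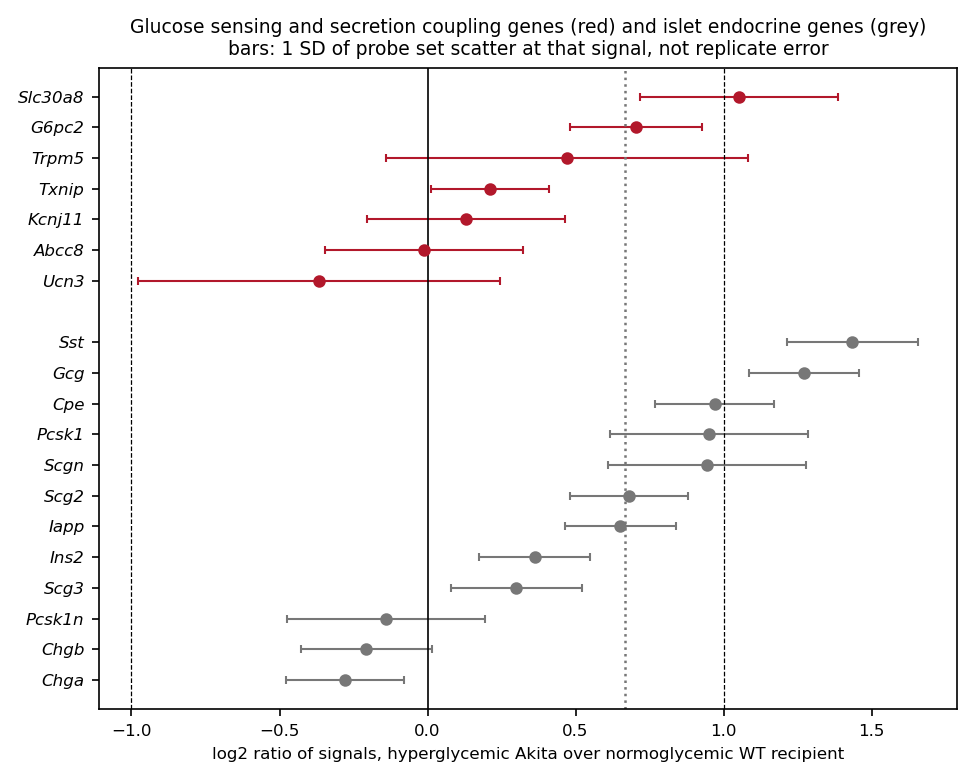
Log2 ratio of signals, hyperglycemic Akita over normoglycemic WT recipient (x axis), for the 7 measured genes of glucose sensing and secretion coupling (red) and for 12 islet endocrine genes (grey), each on its brightest probe set. Bars are 1 SD of probe set scatter at that signal and not replicate error, dashed lines mark 2-fold and the dotted line the median of the endocrine genes (0.67). Slc30a8 and G6pc2 lie at or to the right of the dotted line and the other 5 to the left, from Trpm5 (0.47) to Ucn3 (-0.37), before any centring.

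Set against the islet endocrine genes, the 7 genes thus fell on both sides. Their log2 ratios minus the median of that list were 0.39 for Slc30a8, 0.04 for G6pc2, -0.20 for Trpm5, -0.46 for Txnip, -0.54 for Kcnj11, -0.68 for Abcc8 and -1.03 for Ucn3. That list is not one of beta cells alone, since it also holds Gcg and Sst. Centring on the measured beta cell markers instead gave 1.08, 0.73, 0.50, 0.24, 0.16, 0.01 and -0.34 in the same order. The endocrine genes themselves ran from -0.28 for Chga, chromogranin A, to 1.43 for Sst, and each of the 7 genes except Ucn3 lay within that range before centring. In the order from Slc30a8 to Ucn3, the 6 pairs of neighbours differed by 0.21 to 0.87 of their combined SD. Ordering genes by their ratios makes such gaps small, so nothing is concluded from them. Of all 21 pairs, 3 differed by over 2 combined SD, all with Slc30a8 as the higher gene, against Txnip (2.16), Abcc8 (2.25) and Ucn3 (2.03). These 3 pairs reuse the gene with the highest ratio and are not separate results. The share among pairs of all measured genes was not computed, so the count says nothing particular about this group. Such differences between log2 ratios do not depend on the scaling of the arrays by a constant.

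The other genes of the route, taken from lists fixed by name, were mostly within 2-fold except in the list of receptors. Of all 12538 measured genes, 948 were over 2-fold higher and 695 lower, or 543 and 269 with signals raised to the floor. The lists are too short to be set against these counts. Of 14 genes of glucose entry and metabolism, 13 were measured, and their median log2 ratio was -0.17. 0 were over 2-fold higher, and only Ak1, an adenylate kinase, passed the limit downward, at 126 against 293. Slc2a1, the glucose transporter GLUT1, had signals of 4922 and 3061 in the hyperglycemic and the normoglycemic recipient, Pfkm, a phosphofructokinase, 429 and 795, and Mdh1, a malate dehydrogenase, 45599 and 27655. Most of these enzymes are also made in kidney.

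Of 17 genes of electrical activity, 9 were measured, and their median log2 ratio was -0.30. By deposited signals 2 passed 2-fold upward and 1 downward, and that 1 was lost once signals were raised to the floor. Cacna1d, an L-type calcium channel of beta cells, had a signal of 325 in the hyperglycemic and 134 in the normoglycemic recipient, and Trpm2, a cation channel that phagocytes also express, 212 and 85.5. The macrophage markers given above moved the same way as Trpm2, and their part was not tested. Cacna1c, the other L-type channel, had signals of 12.3 and 85.6, the first below the floor and the second just above it, and no fold is given. Kcnq1, a potassium channel gene next to Trpm5 on chromosome 7, had signals of 349 and 495.

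Of 18 genes of granule docking and exocytosis, 17 were measured, 3 were over 2-fold higher and 0 lower, or 1 and 0 with signals raised to the floor (median log2 ratio -0.06). Stx1a, syntaxin 1A of the fusion complex and named after its value was seen, was the 1 left, at 212 against 72.4 (at least 2.55-fold). Ptprn, an autoantigen of the granule membrane, was at 107 against 9.82, which is at least 1.29-fold, and Unc13a, which primes granules, was at 139 against 7.12, or at least 1.67-fold. Rab3a and Rph3al, which tether granules, had ratios of 0.96 and 0.86, and Ica1, an islet autoantigen, 0.61.

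Of 17 receptor and cAMP signalling genes, only 5 were measured, and 1 of these, Prkar1a, a regulatory subunit of protein kinase A, had both signals at or above the floor (4537 against 4687). The other 4 were above it in 1 sample each, 2 over 2-fold higher and 2 over 2-fold lower by deposited signals and 0 in either direction with the floor. Gipr, the receptor of the incretin GIP and named after its values were seen, was below the floor like Glp1r, at 6.57 and 41.1.

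Around Txnip, all 12 genes of the carbohydrate response and of thioredoxin were measured and 0 were over 2-fold in either direction (median log2 ratio -0.27). Mlxip, the MondoA partner of Mlx, had a signal of 213 in the hyperglycemic and 418 in the normoglycemic recipient, a ratio of 0.51, and Txnrd1, thioredoxin reductase, 2812 and 4551, a ratio of 0.62. Txn1, thioredoxin, had a ratio of 0.78, Arrdc3, an arrestin-domain relative of Txnip, 1.30, and Nlrp3, the inflammasome sensor that Txnip can bind, 1.64 (208 against 127).

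For the pathway of the prolactin receptor, 10 of 11 genes were measured, 1 was over 2-fold higher, 0 with the floor, and 0 were lower (median log2 ratio 0.19). Tph1, which makes serotonin and is induced by prolactin in beta cells, was at 113 against 34.0, which is at least 1.36-fold. Socs2, a feedback inhibitor of this pathway, had signals of 2359 in the hyperglycemic and 1662 in the normoglycemic recipient, a ratio of 1.42, and Stat5b, its transcription factor, 506 and 672. Ghr, the growth hormone receptor, which uses the same pathway in kidney, had a ratio of 1.10 (16555 against 15003).

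Relatives of the 9 genes in other tissues were described by the same measure. Of 20 such paralogs, 16 were measured, and their median log2 ratio was 0.08. Trpm2 and Arrdc2 passed 2-fold upward and 1, Gcgr, downward, which did not hold once signals were raised to the floor. G6pc, the glucose-6-phosphatase of liver and kidney, had a signal of 17447 in the hyperglycemic and 14862 in the normoglycemic recipient, a log2 ratio of 0.23, where that of G6pc2 was 0.70. Arrdc2, another relative of Txnip, had signals of 176 and 85.4. The vascular KATP subunits Abcc9 and Kcnj8, named after their values were seen, had ratios of 1.26 and 0.97, within 1 SD of the scatter like Abcc8 and Kcnj11.

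**Figure D3:**
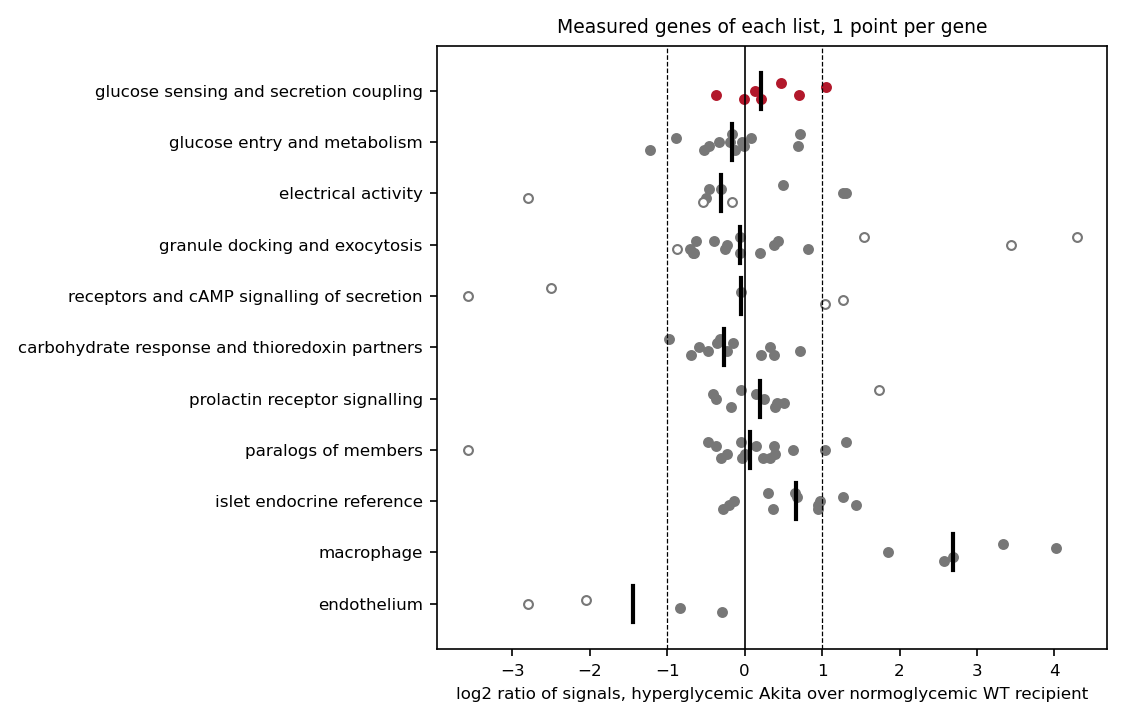
Log2 ratio of signals, hyperglycemic Akita over normoglycemic WT recipient (x axis), 1 point per measured gene of 11 lists, on the brightest probe set. Points are filled if neither signal was under its array median and open if 1 was, black bars are list medians and dashed lines mark 2-fold. The median of the glucose sensing and secretion coupling genes is 0.21 and that of the islet endocrine genes 0.67 without centring, and the outlying points of the exocytosis and receptor lists are open.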

How the data were processed

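Total RNA of 2 islet graft samples, 1 per condition, was measured on MOE430 2.0 arrays. The authors deposited signal intensities made with MAS5, whose version and settings are not stated in the sources used, as linear values of 45101 probe sets, including 64 controls. Trimmed of 2% of probe sets at either end, the mean was 500.004 on both arrays, so the signals had been scaled to a common mean before deposit. The 18 hybridization controls had a median ratio of 1.91, a size between the ratios of G6pc2 (1.63) and Slc30a8 (2.07). No scaling tried here was based on these controls, and the part of such a difference in the ratios was not tested. The 3′ to 5′ signal ratio, a sign of RNA quality, was 3.99 in the hyperglycemic and 3.54 in the normoglycemic sample for Actb, and 1.76 and 1.30 for Gapdh.

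Gene names came from the annotation of the platform, which gave 34945 probe sets 1 symbol, 932 several and 9160 none. Genes of the group and of the lists, and the rule for genes named in the text, were chosen with earlier results of these data known. The rule took all genes of the group and, from each list, up to 2 of the highest, of the lowest and of the brightest. Genes were represented by their probe set of highest mean log2 signal. Where only the lower signal was below the floor, a fold is given as a bound, with both signals raised to their floors, and where both were below, none is given. The scatter of a ratio was the SD over pairs of probe sets of 1 gene, divided by the square root of the pair size, in bins of the lower mean signal. No test was possible with 1 array per condition, and the number of arrays limits the precision. The ratio and count steps were tested on simulated data. Python 3.11.15, numpy 2.4.6, pandas 2.3.3 and matplotlib 3.10.9 were used.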

Additional observations from a re-analysis of the deposited data

How the results depend on the processing

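Slc30a8, the gene counted as over 2-fold higher, was not counted with median centring, with the array median added to both signals, when centred on the islet endocrine genes or on Ins2, or at a limit of 3-fold (0 genes each). At a limit of 1.5-fold there were 2. The count over 2-fold lower was 1 when centred on the islet endocrine genes (Ucn3) and 1 when a gene's probe sets were summarised by their median (Trpm5, through probe sets below the floor), against 0. The median log2 ratio of the 7 genes was -0.46 when centred on the islet endocrine genes and -0.15 when centred on Ins2, against 0.21. Those centrings subtract 0.67 and 0.36 from every log2 ratio by construction, and took the median of all measured genes to -0.73 and -0.42, against -0.06, and median centring took it to -0.20. The other settings of the counts and the median stayed within 1.5 times or within 1 SD. G6pc2 and Slc30a8 kept a log2 ratio above 0 (lowest 0.04 and 0.39) and Ucn3 below 0 (highest -0.19) under all settings, whereas those of Abcc8, Kcnj11, Trpm5 and Txnip changed sign. Centring on Ins2 and on beta cell genes was added after the data had been seen. No paired analysis was possible because each condition had 1 array. Low signals limit Glp1r and the second probe sets of Abcc8, Kcnj11 and Trpm5.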
